A study of Mus musculus with 12 samples.

Results

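The 10 genes described here encode selenoproteins: *Selenow*, *Selenoh*, *Selenok*, *Selenof*, *Selenot*, *Gpx1*, *Gpx4*, *Txnrd1*, *Txnrd2* and *Msrb1*. They were taken by gene symbol from the deposited tables and are 10 of 54146 genes in the files and 10 of 24 selenoprotein genes. All 10 were found, and all 10 were tested in every comparison, with a mean above 100 normalized reads. Selenoproteins contain selenocysteine, an amino acid placed at a UGA codon that would otherwise end translation. Its insertion needs a stem-loop in the mRNA, a protein that binds this stem-loop, a dedicated elongation factor and a tRNA that is first charged with serine. Many of these proteins are oxidoreductases that use selenocysteine in the active site to reduce peroxides, thioredoxin or oxidized methionine, and several reside in the endoplasmic reticulum.

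RNA-seq was performed on mouse embryonic stem cells (mESCs) of C57BL/6 strain with the genotype Prdm10F/F; Rosa26-CreERT2, cultured in serum and LIF on gelatin. *Prdm10* encodes a zinc finger transcription factor, and exon 5 of both alleles is flanked by loxP sites. All 4 groups carried the floxed alleles and a Cre recombinase that is expressed from the *Rosa26* locus and becomes active on 4-hydroxytamoxifen (OHT). Cells received 50 nM OHT (genotype label Prdm10del/del) or an equal volume of ethanol (EtOH, Prdm10F/F) for 24 h and were harvested at Day 2 or Day 4, with 3 libraries for each of Day 2 EtOH, Day 2 OHT, Day 4 EtOH and Day 4 OHT. The methods describe lines derived from blastocysts on fibroblast feeders, and the sources used here do not say whether the cells were 1 clone. The labels do not say whether the 3 libraries of a group came from separate cultures, so the p-values measure the spread between these libraries, which may be technical. The study's general statement gives 3 or more biological repeats per experiment unless a figure legend says otherwise, and does not name these libraries. The question asked of each gene was whether its RNA differed between the libraries labelled OHT and EtOH on each day.

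The libraries held 35017667 to 41409992 expected counts, an expected count being the estimated number of read pairs from a gene. *Prdm10* itself was higher in the libraries labelled OHT, with normalized read counts of 759, 817 and 814 with EtOH and 2071, 2211 and 2200.0 with OHT on Day 2 and 827, 884 and 919.6 with EtOH and 1998, 2106 and 1976 with OHT on Day 4. Its log2 fold changes were 1.44 and 1.21 (DESeq2 adjusted p = 1.37e-105 and 4.32e-83). A count over the whole gene includes exons outside the floxed exon and so checks nothing about its deletion. The study reported checks of recombination after OHT in mESCs of this genotype, on genomic DNA, transcript and protein. Groups are named below by their labels. The 8 pluripotency markers summed to 2365 to 2849.6 TPM (a level scaled by gene length and by the library's total) and none was below 26.1 TPM in any library. Markers of other cells were low in all 12 libraries, with 6.14 to 7.58 TPM over 8 germ layer genes, 1.81 to 2.61 TPM over 5 primitive endoderm genes and 0.880 to 3.22 TPM over 7 fibroblast genes. The fibroblast sum was lower in Day 4 OHT (0.880 to 1.37 TPM) than in Day 4 EtOH (2.21 to 3.06 TPM). So was the germ layer sum (6.14 to 6.61 against 6.62 to 6.92 TPM). The pluripotency sum was higher with OHT at Day 2 (2589 to 2760 against 2545 to 2582 TPM) and at Day 4 (2748 to 2849.6 against 2365 to 2648 TPM). The other sums overlapped between the labels of a day. The part of these differences in the results was not tested. Of the 7 fibroblast genes, *Lum* was at 0 counts in all 3 libraries of Day 2 EtOH and of Day 4 OHT, and *Dcn* in all 3 of Day 2 OHT.

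*Selenow* was the member with the largest change on both days. It encodes a small thioredoxin-fold protein that is abundant in muscle and brain and is thought to act on glutathione-dependent redox reactions. At Day 2 the normalized read counts of *Selenow* were 511, 601 and 661 with EtOH and 227, 253 and 245 with OHT. The highest OHT library thus held less than the lowest EtOH library, and the groups did not overlap. On the log2 scale this was a fold change of -1.29 ± 0.12 (± gives the SE of every log2 fold change), or 2.44-fold lower (DESeq2 adjusted p = 1.09e-25). By Day 4 they stood at 959, 869.7 and 802 with EtOH and 29.8, 24.9 and 24.3 with OHT. All 3 OHT libraries lay far below the EtOH libraries of that day, and *Selenow* RNA stood at 3.00% of the EtOH level. This is 33.3-fold lower, with a log2 fold change of -5.06 ± 0.19 and a 95% interval from -5.42 to -4.69 (DESeq2 adjusted p = 1.60e-160). A bulk measurement cannot tell fewer cells with the RNA from less RNA per cell. A fall of over 2-fold at adjusted p below 0.05 was found for 0.447% of all genes tested at Day 2 and 0.952% at Day 4.

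**Figure D1:**
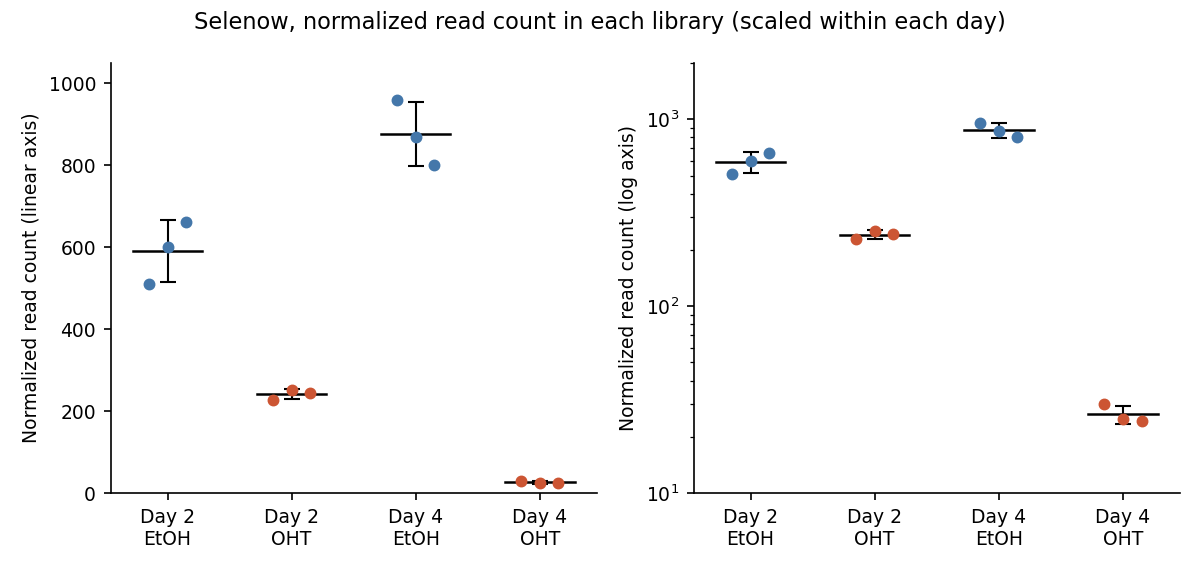
Normalized read counts of *Selenow* in each of the 12 libraries on a linear axis (left) and a log axis (right), scaled within each day; points are libraries, horizontal lines are group means and bars are SD (n = 3). The Day 4 OHT libraries sit between 24.3 and 29.8, below the Day 2 OHT libraries and both EtOH groups.

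The treatment effect on *Selenow* differed between the days, with an interaction of -3.77 ± 0.22 on the log2 scale (DESeq2 adjusted p = 3.08e-63). In the EtOH libraries *Selenow* was higher at Day 4 than at Day 2, by 0.55 on the log2 scale (DESeq2 adjusted p = 2.06e-07). In the OHT libraries it was lower at Day 4, by a log2 fold change of -3.21 (DESeq2 adjusted p = 4.39e-46). Day and harvest cannot be told apart in either comparison. *Selenow* lies at chr7:15917208-15922402 on the minus strand of GRCm38 (GENCODE vM21), has 1 annotated transcript and overlaps no other gene. RSEM gave a posterior SD of 0 for its count in every library, so none of its reads were shared with another gene.

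*Selenow* and *Selenoh* are on the study's list of genes with PRDM10 bound nearby, and the other 8 members are not. That list came from ChIP-seq and was not chosen on these libraries. The share of all genes on it was not computed, so this overlap is a description only. The study found a motif in its ChIP-seq peaks, and PRDM10 activated a reporter with that motif but not with a mutated one. In gel shifts, a PRDM10 fragment with the zinc fingers bound a WT probe of 28 bases robustly and a MUT probe less efficiently. The 2 probes are shown because their difference marks the bases examined here. The motif itself was not searched. Capitals span the first to the last base that differs between them, 11 bases of which 8 were changed.
WT probe: ctggcacagTGGTCGCGCCCggcccgcc
MUT probe: ctggcacagCAACCGCATTTggcccgcc
The 11 bases in capitals of the WT probe (TGGTCGCGCCC) were searched on both strands of RefSeq promoter windows (250 bases before and 50 from each start, GRCm38.p6). With up to 2 mismatches a match was present in 3404 of 32851 windows (10.4%), or those of 11.8% of genes, and in those of 3 of the 10 members, *Selenow*, *Selenok* and *Gpx4*. With up to 1 mismatch no member had a match, against 0.788% of all windows. *Gpx4* has 4 annotated starts in these windows, 3 of which held a match, and the matches of 2 overlapping windows are the same site. In the matches below, lower case marks the bases that differ from the probe.
Selenow: gGtTCGCGCCC
Selenok: gGGTCGaGCCC
Gpx4: TGGgCGtGCCC
Gpx4, at a further start: TGGTCaCGCgC
The 219 bases before the annotated start of *Selenow*, the member with the largest fall, are given 5′ to 3′ on its minus strand (chr7:15922403-15922621, GRCm38.p6, from RefSeq), with the match in capitals, which ends 67 bases before that start.
Selenow upstream: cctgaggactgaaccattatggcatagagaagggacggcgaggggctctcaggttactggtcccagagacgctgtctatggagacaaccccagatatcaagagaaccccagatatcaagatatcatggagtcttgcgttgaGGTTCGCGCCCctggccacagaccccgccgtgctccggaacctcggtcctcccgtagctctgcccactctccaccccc
A match of letters is a description of these windows and not of binding. Windows of the other 7 members held none with up to 2 mismatches. The closest letters in that of *Selenoh* had 4.

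Across the members, the treatment effects were mixed in direction and mostly small beside that of *Selenow*. At Day 2, *Gpx4* and *Txnrd1* rose and *Selenow*, *Selenoh* and *Selenok* fell, which is 5 of 10 members called, where 19.8% of all 11642 genes tested were called. At Day 4, *Selenof*, *Gpx1*, *Gpx4* and *Txnrd1* rose and the same 3 genes fell, 7 of 10 where 45.1% of 11552 genes were called. The 3 that fell at Day 4 became 1, *Selenow*, without EtOH replicate 1 or without OHT replicate 2 or 3. A gene was called at a DESeq2 adjusted p below 0.05 with a mean normalized count above 100. The 2 members that rose at Day 2 stand beside 9.17% of genes called higher and the 3 that fell beside 10.6% called lower, and the 4 and 3 at Day 4 beside 23.5% and 21.7%. At Day 2 the 10 log2 fold changes had a median of -0.060, beside -0.028 for every gene tested, and at Day 4 these medians were 0.11 and 0.0061. Of all genes called at Day 2, 46.3% were higher, a share that became 68.5% with libraries scaled by total counts. The 2 groups did not overlap for 7 members at Day 2, where 46.0% of genes did not, and for 8 at Day 4, where 62.9% did not.

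**Figure D2:**
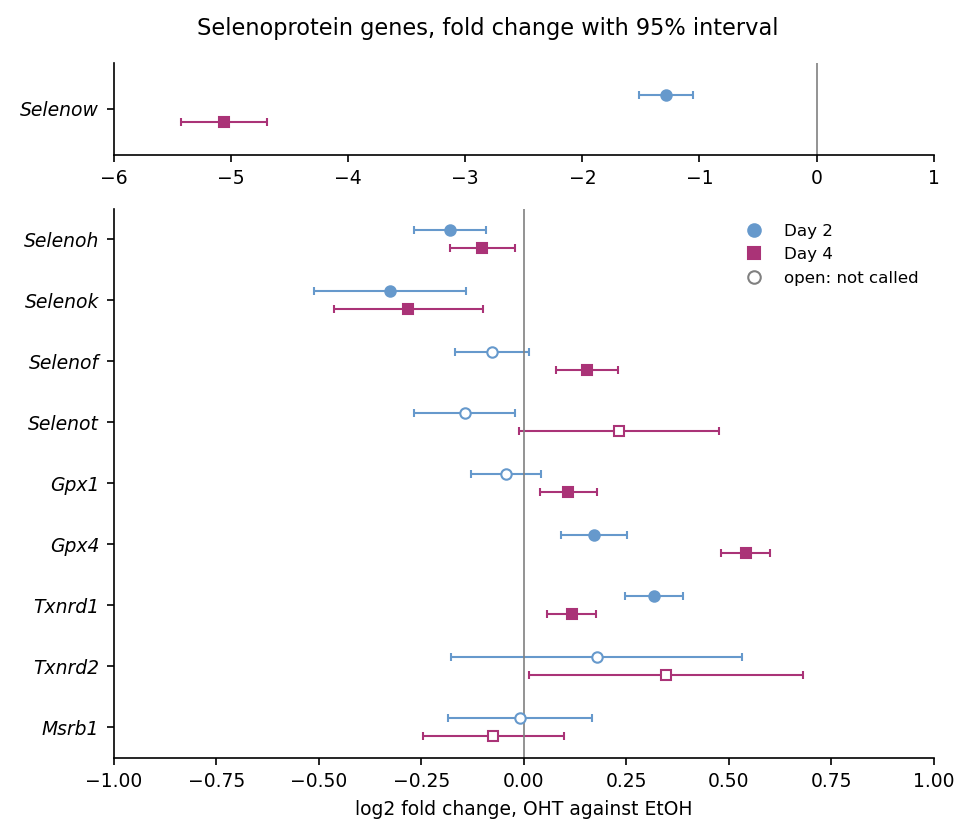
Log2 fold change of OHT against EtOH for the 10 genes at Day 2 (circles) and Day 4 (squares), with 95% intervals; filled symbols were called and open symbols were not, and *Selenow* has an axis of its own. *Selenow* lies at -1.29 and -5.06, and every other gene lies between -0.33 and 0.54.

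*Selenoh*, a nucleolar protein with a thioredoxin fold that binds DNA, fell on both days by a small amount. Normalized read counts were 5885, 5984 and 5713 with EtOH and 5379, 5048 and 5103 with OHT at Day 2 and 7070.1, 6786 and 6431 with EtOH and 6422, 6376 and 6115 with OHT at Day 4. OHT libraries were lower than every EtOH library of their day. The log2 fold change was -0.18 ± 0.045 at Day 2 (DESeq2 adjusted p = 0.00113) and -0.10 ± 0.040 at Day 4 (DESeq2 adjusted p = 0.0375). The effects on the 2 days differed by 0.081, with a 95% interval from -0.033 to 0.19 (DESeq2 adjusted p = 0.346). The Day 4 call was lost when EtOH replicate 1 or 2 or any of the 3 OHT libraries was left out (adjusted p from 0.0715 to 0.204) and with TMM factors or effective lengths as offsets (adjusted p = 0.0539 and 0.0839; adjusted p 0.00584 to 0.204 over all alternatives). The Day 2 call was lost once each library's trend on gene length was removed (-0.093, adjusted p = 0.131; adjusted p 2.18e-04 to 0.131 over all alternatives). *Selenoh* (mean length 725 bases) and *Selenow* (736 bases) are short beside the median of 2432 bases over all genes tested, and *Selenoh* (chr2:84669215-84670770) overlaps *Gm28635* on the same strand.

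*Selenok*, *Selenof* and *Selenot* encode proteins of the endoplasmic reticulum. *Selenok* (chr14:29968308-29975662), a membrane protein that takes part in protein palmitoylation and in the degradation of misfolded proteins, fell on both days. Its normalized read counts were 569, 617 and 683 with EtOH and 495, 485 and 509 with OHT at Day 2. At Day 4 they were 702, 618 and 579.7 with EtOH and 543, 516 and 504 with OHT. Groups did not overlap on either day, and the EtOH libraries were more spread than the OHT libraries. The log2 fold changes were -0.33 ± 0.095 and -0.28 ± 0.093 (DESeq2 adjusted p = 0.00648 and 0.00951), with no detectable difference between the days (0.048, 95% interval -0.20 to 0.29, DESeq2 adjusted p = 0.847). The Day 2 call was lost without EtOH replicate 3 (-0.26, adjusted p = 0.0737), without OHT replicate 2 (adjusted p = 0.0519) and with the length trend removed (-0.25, adjusted p = 0.0623; adjusted p 0.00224 to 0.0737 over all alternatives). At Day 4 it was lost without EtOH replicate 1 (-0.20, adjusted p = 0.119) and without OHT replicate 2 or 3 (adjusted p = 0.0541 and 0.0696; adjusted p 0.00533 to 0.119 over all alternatives).

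*Selenof*, a partner of the enzyme that checks the folding of glycoproteins, moved little at Day 2 and rose at Day 4. At Day 2 the normalized read counts were 5501, 5143 and 5139 with EtOH and 4997, 5076 and 4887 with OHT, all OHT libraries being below all EtOH libraries by a narrow margin (log2 fold change -0.077, DESeq2 adjusted p = 0.278). At Day 4 they were 5265, 5013 and 5038 with EtOH and 5726, 5814 and 5511 with OHT. OHT libraries were now the higher ones, without overlap, and the log2 fold change was 0.15 ± 0.038 (DESeq2 adjusted p = 3.13e-04). The difference between the days was 0.24 ± 0.055 (DESeq2 adjusted p = 2.56e-04). *Selenof* (chr3:144570304-144597680) overlaps *Gm24406* on the other strand.

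For *Selenot* (chr3:58576636-58593133), a thioredoxin-like protein with reductase activity, the counts at Day 2 were 4425, 4012 and 4600.2 with EtOH and 3873, 4275 and 3643 with OHT, and the groups overlapped (log2 fold change -0.14, DESeq2 adjusted p = 0.103). By Day 4 they stood at 5410.5, 4283 and 4165 with EtOH and 5431, 5314 and 5541 with OHT. EtOH replicate 1 stood at the OHT level, apart from the other 2 EtOH libraries. With all libraries the Day 4 log2 fold change was 0.23 ± 0.12 (DESeq2 adjusted p = 0.145). On the same 6 libraries edgeR's quasi-likelihood test gave 0.23 and called it (adjusted p = 0.0250), and without EtOH replicate 1 DESeq2 gave 0.36 (adjusted p = 6.66e-19; adjusted p 6.66e-19 to 0.375 over all alternatives). The interaction changed with this library in the same way, from 0.38 (DESeq2 adjusted p = 0.0538) to 0.51 (adjusted p = 2.98e-08), and it was also called by edgeR (adjusted p = 0.0147), with effective lengths (adjusted p = 0.0150) and without Day 2 EtOH or OHT replicate 2 (adjusted p = 0.0373 and 0.0271; adjusted p 2.98e-08 to 0.147 over all alternatives). Without Day 2 OHT replicate 2, the highest of its group, the Day 2 value passed the test at -0.21 (adjusted p = 0.0236; adjusted p 0.0236 to 0.575 over all alternatives).

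**Figure D3:**
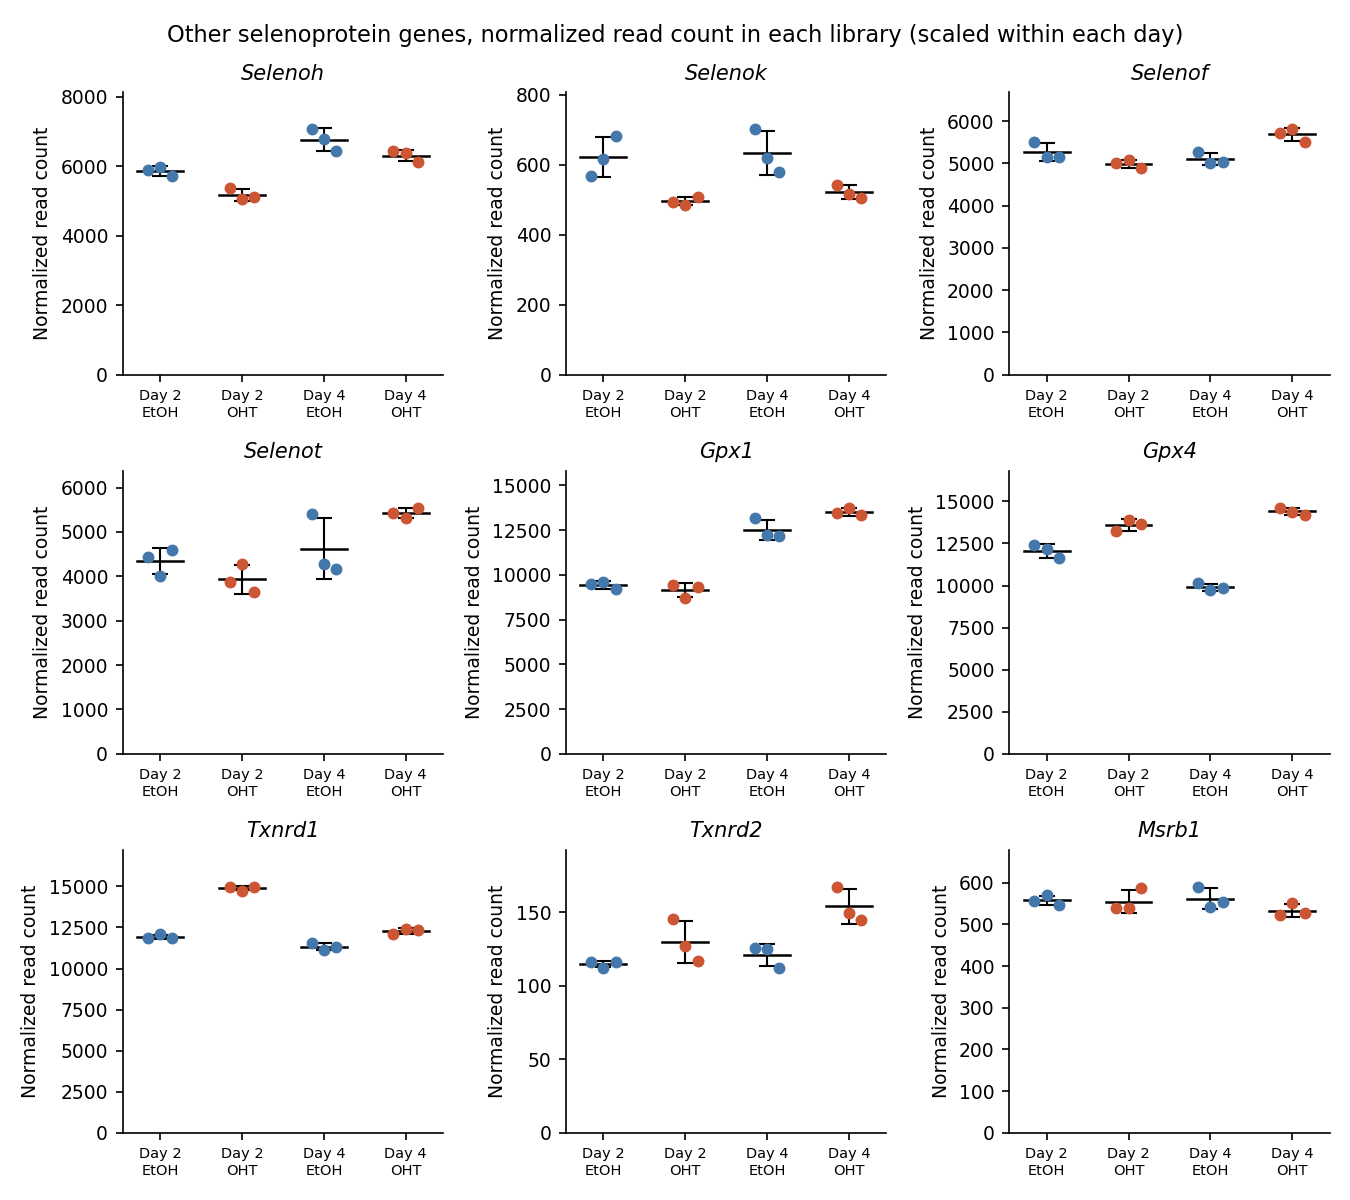
Normalized read counts of the other 9 selenoprotein genes in each library, scaled within each day, on linear axes that start at 0; points are libraries (blue EtOH, red OHT), lines are group means and bars are SD (n = 3). *Gpx4* and *Txnrd1* stand higher in OHT than in EtOH on both days, *Selenoh* and *Selenok* lower, and EtOH replicate 1 of *Selenot* stands apart at Day 4.

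Both glutathione peroxidase genes among the members were higher after OHT at Day 4, while *Gpx2* and *Gpx3*, described below, were not. GPX1 reduces hydrogen peroxide in the cytosol, and GPX4 reduces lipid peroxides in membranes and is the main barrier to ferroptosis. *Gpx4* counts were 12426, 12167 and 11614 with EtOH and 13213, 13878 and 13675 with OHT at Day 2, a log2 fold change of 0.17 ± 0.041 (DESeq2 adjusted p = 6.34e-04). At Day 4 they were 10131, 9748 and 9838 with EtOH and 14617, 14394 and 14222 with OHT. Every OHT library was above every EtOH library on both days, and the Day 4 change of 0.54 ± 0.030, or 1.45-fold, was the largest rise among the members (DESeq2 adjusted p = 1.42e-68). The effect was greater at Day 4 by 0.37 ± 0.047 (DESeq2 adjusted p = 4.12e-13). In the EtOH libraries alone *Gpx4* fell from Day 2 to Day 4 (-0.31, DESeq2 adjusted p = 1.36e-14), while in the OHT libraries the difference between the days was 0.069 (DESeq2 adjusted p = 0.102).

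*Gpx4* (chr10:80047166-80056439) shares sequence with the transcribed pseudogene *Gpx4-ps2* (chr10:45875291-45876086), and its count is uncertain to that extent. RSEM's posterior SD of the *Gpx4* count was 61.8 to 93.8 over the 12 libraries, of 9639 to 15207 expected counts. *Gpx4-ps2* held 2670.3, 2876 and 2688 with EtOH and 3365, 2984 and 3122 with OHT normalized reads at Day 2 and 2652, 2339 and 2299 with EtOH and 3642, 3682 and 3466 with OHT at Day 4, and it moved by 0.20 and 0.57 on the log2 scale (DESeq2 adjusted p = 0.00512 and 3.23e-24). Summed with the pseudogene, *Gpx4* differed by 0.18 at Day 2 and 0.55 at Day 4 (difference between group means of log2 normalized counts, no test).

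*Gpx1* (chr9:108338903-108340343) counts at Day 2 were 9502, 9569 and 9183 with EtOH and 9429.5, 8699 and 9291 with OHT, and the groups overlapped (log2 fold change -0.044, 95% interval -0.13 to 0.042, DESeq2 adjusted p = 0.584). At Day 4 they were 13172, 12235 and 12158 with EtOH and 13436, 13737 and 13328 with OHT, with the OHT libraries above all EtOH libraries. The rise was 0.11 ± 0.035 (DESeq2 adjusted p = 0.00823), and the interaction was 0.16 ± 0.055 (DESeq2 adjusted p = 0.0254). The difference between the days was larger than that between the labels, with log2 fold changes of Day 4 against Day 2 of 0.39 in EtOH and 0.55 in OHT (DESeq2 adjusted p = 1.20e-20 and 3.40e-44). The Day 4 call was lost without EtOH replicate 2 or 3 or OHT replicate 2 (adjusted p = 0.0807, 0.0697 and 0.0740; adjusted p 1.38e-06 to 0.0807 over all alternatives). The interaction call was lost with total counts or the length trend removed (adjusted p = 0.0960 and 0.193), and without Day 2 EtOH replicate 1 or 2, Day 4 EtOH replicate 2 or 3, or OHT replicate 2 of either day (adjusted p from 0.0719 to 0.101; adjusted p 0.00161 to 0.193 over all alternatives).

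Thioredoxin reductases pass electrons from NADPH to thioredoxin, TXNRD1 mainly in the cytosol and TXNRD2 in mitochondria. *Txnrd1* rose on both days, and more at Day 2. Counts were 11887, 12088 and 11869 with EtOH and 14945, 14749.7 and 14970.1 with OHT at Day 2. At Day 4 they were 11553, 11126 and 11304 with EtOH and 12073, 12433 and 12353 with OHT. Groups did not overlap on either day, and the log2 fold changes were 0.32 ± 0.036 and 0.12 ± 0.030 (DESeq2 adjusted p = 8.25e-17 and 6.72e-04). The interaction of -0.20 ± 0.036 (DESeq2 adjusted p = 1.28e-06) was negative, the opposite of that of *Gpx4*. *Txnrd1* was lower at Day 4 than at Day 2 with both labels, by a log2 fold change of -0.10 in EtOH (DESeq2 adjusted p = 0.0100) and -0.29 in OHT (DESeq2 adjusted p = 4.98e-18). The former was not called without Day 2 EtOH replicate 2 or Day 4 EtOH replicate 2 (adjusted p = 0.0808 and 0.0933; adjusted p 7.93e-04 to 0.0933 over all alternatives). *Txnrd1* (chr10:82833951-82897712) overlaps *Eid3* on the same strand and 2 predicted genes on the other.

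*Txnrd2* (chr16:18426384-18479073) was the member with the fewest reads in the EtOH libraries, with 116, 112 and 116 with EtOH and 145, 127 and 117 with OHT at Day 2 and 126, 125 and 112 with EtOH and 167, 149 and 145 with OHT at Day 4 (normalized read counts). OHT libraries were higher than all EtOH libraries on both days, but the log2 fold changes of 0.18 ± 0.18 and 0.35 ± 0.17 did not pass the test (DESeq2 adjusted p = 0.592 and 0.107). edgeR's quasi-likelihood test gave 0.34 at Day 4 with an adjusted p of 0.0171 (adjusted p 0.0171 to 0.614 over all alternatives). *Msrb1* (chr17:24736642-24742778), which reduces oxidized methionine in proteins, had counts of 556, 569.5 and 547 with EtOH and 538, 538 and 587 with OHT at Day 2 and 590.0, 542 and 553 with EtOH and 521, 551 and 527 with OHT at Day 4, which overlapped on both days. A difference in *Msrb1* was not detected (Day 2 -0.0089, 95% interval -0.18 to 0.17, DESeq2 adjusted p = 0.971; Day 4 -0.074, 95% interval -0.25 to 0.098, DESeq2 adjusted p = 0.575).

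The test of the difference between the 2 days' effects called 5 of 10 members, where 32.3% of 11612 genes tested were called. *Selenof*, *Gpx1* and *Gpx4* had a more positive effect at Day 4 (18.7% of all genes) and *Selenow* and *Txnrd1* a more negative one (13.6% of all genes). Of all genes called, 58.0% were higher, which became 44.2% with total counts. Between the days in EtOH, *Selenow*, *Selenoh* and *Gpx1* were higher at Day 4 and *Gpx4* and *Txnrd1* lower, 5 of 10 where 41.1% of genes were called, 20.6% higher and 20.5% lower (1 gene lower, *Gpx4*, without EtOH replicate 2 of either day). In OHT, *Selenoh*, *Selenof*, *Selenot* and *Gpx1* were higher at Day 4 and *Selenow* and *Txnrd1* lower, 6 of 10 where 53.6% were called, 30.7% higher and 23.0% lower. *Selenoh* rose by 0.18 in EtOH and 0.27 in OHT (DESeq2 adjusted p = 1.73e-04 and 9.69e-10). *Selenof* rose by 0.17 and *Selenot* by 0.45 in OHT (DESeq2 adjusted p = 1.04e-04 and 4.80e-16), where their values in EtOH were -0.068 and 0.064 (DESeq2 adjusted p = 0.252 and 0.766). These comparisons share libraries with the treatment comparisons and are given side by side with them.

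Levels between genes were compared by TPM, which accounts for length. In Day 2 EtOH, *Gpx4* was highest at 323 ± 6.43 TPM (SD, n = 3 for each mean), followed by *Gpx1* at 261 ± 3.70, *Selenoh* at 219 ± 3.40, *Selenof* at 109.6 ± 4.56 and *Txnrd1* at 88.6 ± 1.43. Lower levels were those of *Selenot* at 31.2 ± 2.22 TPM, *Selenow* at 21.6 ± 3.04, *Selenok* at 16.7 ± 2.22, *Msrb1* at 15.3 ± 0.131 and *Txnrd2* at 1.89 ± 0.0889. In this order only *Selenow* with *Selenok* and *Selenok* with *Msrb1* overlapped between their libraries. *Gpx1* took the first place in Day 4 EtOH, at 384 ± 21.1 TPM, where *Gpx4* at 287 ± 8.93 and *Selenoh* at 273 ± 17.2 overlapped. In Day 4 OHT, *Gpx4* at 411 ± 6.84 and *Gpx1* at 406 ± 2.02 TPM overlapped.

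*Selenow* moved from the seventh place in both EtOH groups to the ninth in Day 2 OHT (9.34 ± 0.497 TPM) and the tenth in Day 4 OHT (1.02 ± 0.113 TPM), below *Txnrd2*. Its Day 4 EtOH level was 34.6 ± 3.62 TPM, which overlapped that of *Selenot* at 36.0 ± 5.48. Over all 24 selenoprotein genes, the summed level was 1200.1 ± 6.40 TPM in Day 2 EtOH, 1272 ± 44.4 in Day 2 OHT, 1368 ± 64.6 in Day 4 EtOH and 1488 ± 10.4 in Day 4 OHT. In TPM it was higher in OHT than in EtOH in every library of each day. A two-sided exact permutation test gave p = 0.1 on each day, the smallest that 3 against 3 libraries allow. TPM and normalized counts are scaled differently. At Day 2, *Gpx1* had means of 9418 and 9140 normalized reads with EtOH and OHT, but 261 and 265 TPM. By normalized counts, 7 of the 10 members had a log2 fold change below 0 at Day 2 and 3 above. How far the Day 2 difference in the sum rests on scaling was not tested. The share of *Selenow* in this sum was 1.80 ± 0.255%, 0.735 ± 0.0441%, 2.53 ± 0.148% and 0.0685 ± 0.00707% in the same order of groups. *Gpx4* made up 26.9 ± 0.513%, 30.4 ± 0.883%, 21.0 ± 0.338% and 27.6 ± 0.346%. The 10 members together held between 90.5% and 92.1% of the sum in each library.

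**Figure D4:**
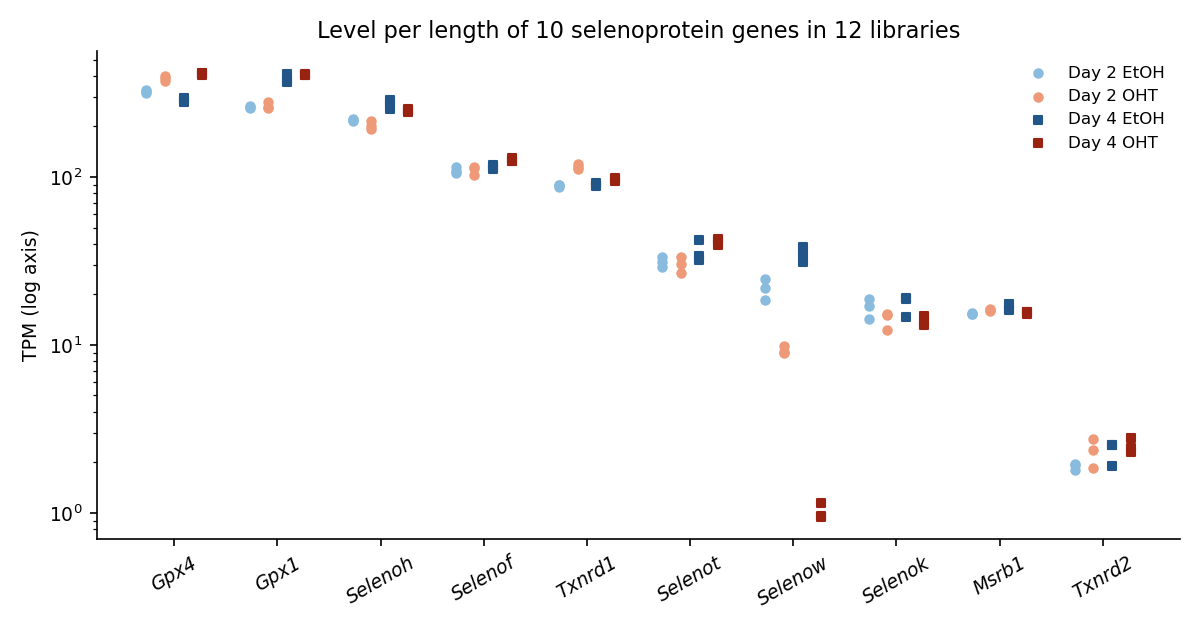
TPM of the 10 genes in the 12 libraries on a log axis, with genes ordered by their mean in Day 2 EtOH; each point is a library and colours and shapes mark the 4 groups. The levels span from about 0.950 TPM for *Selenow* in Day 4 OHT to 416 TPM for *Gpx4* in the same group.

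Of the other 14 selenoprotein genes, 10 were tested at Day 2 and 9 at Day 4, and *Dio1*, *Dio2*, *Dio3* and *Selenov* were below the minimum on both days. At Day 2, 2 rose and 1 fell, and at Day 4, 2 rose and 1 fell, with medians of -0.051 and -0.036. These are 3 of 10 and 3 of 9 genes called, where 19.8% and 45.1% of all genes were. The 2 that rose on each day became 1 when any library of that day other than EtOH replicate 3 was left out. The gene that fell on both days was *Selenop*, a secreted protein with several selenocysteines that carries selenium between tissues and is also on the list of PRDM10-bound genes. *Selenop* counts were 369, 427 and 362 with EtOH and 161, 118 and 131 with OHT at Day 2 and 416, 456 and 429 with EtOH and 89.5, 92.7 and 79.5 with OHT at Day 4. The groups were far apart on both days, and the log2 fold changes were -1.50 ± 0.14 and -2.32 ± 0.14 (DESeq2 adjusted p = 2.87e-23 and 4.64e-58). *Selenow* and *Selenop* were the only tested selenoprotein genes that fell by over 2-fold in these 2 comparisons.

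The 2 genes that rose at Day 2 were *Gpx2* and *Gpx3*, an epithelial and a secreted glutathione peroxidase. *Gpx2* counts were 264, 232 and 239 with EtOH and 416, 448 and 442 with OHT at Day 2, with the OHT libraries well above (0.83 ± 0.11, DESeq2 adjusted p = 3.33e-11). At Day 4 they were 126, 121 and 123 with EtOH and 78.6, 99.6 and 103 with OHT, and the OHT libraries were the lower ones (-0.40 ± 0.19, DESeq2 adjusted p = 0.106). *Gpx3* differed by 0.44 at Day 2 and -0.069 at Day 4 (DESeq2 adjusted p = 0.0362 and 0.815). At Day 4, *Sephs2*, which makes the selenium donor for selenocysteine and is itself a selenoprotein, rose by 0.39 (DESeq2 adjusted p = 3.51e-24), and *Txnrd3*, a thioredoxin and glutathione reductase, by 0.29 (DESeq2 adjusted p = 0.0222). At Day 2 these were at -0.056 and -0.24 (DESeq2 adjusted p = 0.469 and 0.184). *Selenoi*, *Selenom*, *Selenoo* and *Selenos* were not called on either day, with values from -0.14 to 0.19, nor was *Selenon* at Day 2 (0.27).

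The 15 genes of the machinery that makes and inserts selenocysteine were all tested and include *Sephs2*. At Day 2, 3 fell and 0 rose with DESeq2, 0 also with edgeR or at an unadjusted p below 0.05 in DESeq2, and at Day 4, 2 fell and 4 rose, with medians of -0.056 and -0.045. The 3 and 6 of 15 genes called (20% and 40%) are near the 19.8% and 45.1% of all genes. At Day 2, 1 gene fell without EtOH replicate 2 and 1 rose without OHT replicate 3, and at Day 4, 4 fell without EtOH replicate 3. The largest fall was in *Sars*, the seryl-tRNA synthetase that charges the selenocysteine tRNA with serine and equally serves all serine codons. Its counts were 10338, 10406 and 10197 with EtOH and 8222, 8161 and 8425 with OHT at Day 2 and 10355, 10050.1 and 9996 with EtOH and 7205, 7222 and 7097 with OHT at Day 4. Without overlap on either day, *Sars* fell by 0.32 and by 0.50 on the log2 scale (DESeq2 adjusted p = 7.39e-15 and 7.10e-53). *Eif4a3*, a helicase of the exon junction complex that represses selenoprotein mRNAs, was lower at -0.14 and -0.18 (DESeq2 adjusted p = 0.00473 and 9.96e-08), and *Pstk*, the kinase acting on seryl-tRNA, at -0.19 on Day 2 (DESeq2 adjusted p = 0.0232). Besides *Sephs2*, *Scly* (selenocysteine lyase, 0.34), *Rpl30* (a ribosomal protein that binds the selenoprotein stem-loop, 0.19) and *Trit1* (a tRNA modification enzyme, 0.22) rose at Day 4 (DESeq2 adjusted p = 0.00314, 1.96e-06 and 0.00750). Their Day 2 values were 0.17, -0.086 and -0.17 (DESeq2 adjusted p = 0.326, 0.0930 and 0.0879), and that of *Pstk* at Day 4 was -0.14 (DESeq2 adjusted p = 0.0710).

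The other 8 genes of the machinery were not called by DESeq2 on either day. With edgeR's quasi-likelihood test, 4 of the 15 genes were lower at Day 2 and 6 at Day 4. The share of all genes called lower by edgeR is not given here. Over all alternatives, 586 to 1825 of all genes were called lower at Day 2 and 1868 to 3070 at Day 4. With DESeq2 as reported these were 1238 and 2502. The 8 genes were *Eefsec*, the selenocysteine elongation factor (-0.036 and -0.11 at Day 2 and Day 4), *Secisbp2*, which binds the stem-loop (-0.029 and -0.033), its paralog *Secisbp2l* (0.13 and -0.15), *Sepsecs*, which completes selenocysteine on its tRNA (-0.038 and -0.12), *Trnau1ap* (-0.059 and 0.019), *Sephs1* (-0.0052 and -0.094), *Ncl* (-0.14 and 0.015) and *Alkbh8* (-0.036 and -0.045). Their adjusted p in DESeq2 ran from 0.0543 upwards. A p that misses the threshold does not show that these genes were equal between the labels.

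**Figure D5:**
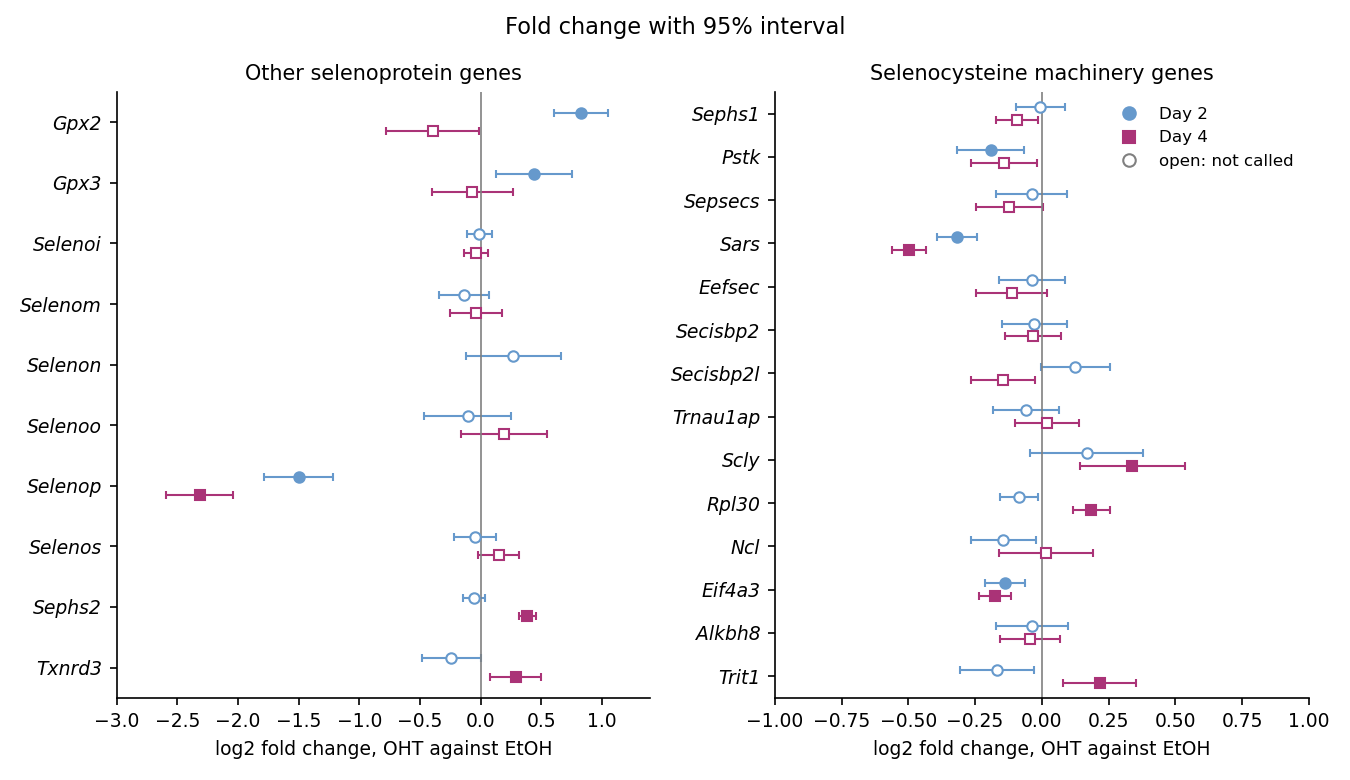
Log2 fold change of OHT against EtOH with 95% intervals for the tested genes of the other selenoproteins (left) and of the selenocysteine machinery (right, *Sephs2* being shown on the left), at Day 2 (circles) and Day 4 (squares); filled symbols were called. *Selenop* falls furthest, at -1.50 and -2.32, and *Sars* falls on both days.

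Partners of the selenoproteins in thioredoxin and glutathione metabolism included 2 genes that fell by over 2-fold on both days. Of 23 genes on that list 20 were tested, with 3 called higher and 3 lower at Day 2 and 5 higher and 5 lower at Day 4 (medians -0.016 and -0.054). The calls amount to 30% and 50% of the tested genes of the list, beside 19.8% and 45.1% of all genes. The 3 called higher at Day 2 became 1 without EtOH replicate 2. *Prdx2*, a thioredoxin-dependent peroxidase, had counts of 9999, 9873 and 9421 with EtOH and 2595, 2551 and 2814 with OHT at Day 2 and 10099, 9684 and 9392 with EtOH and 2361, 2430.1 and 2369 with OHT at Day 4. OHT libraries were far below on both days, with log2 fold changes of -1.88 ± 0.049 and -2.03 ± 0.040 (the DESeq2 adjusted p was too small to be given and was written as 0). *Srxn1*, which restores overoxidized peroxiredoxins, had counts of 987, 944 and 986 with EtOH and 191, 169 and 162 with OHT at Day 2 and 852, 877 and 804 with EtOH and 113, 118 and 130.0 with OHT at Day 4, again far apart (-2.48 ± 0.10 and -2.81 ± 0.11, DESeq2 adjusted p = 1.80e-127 and 7.77e-135). Both are on the list of PRDM10-bound genes. *Txnip*, which binds and inhibits thioredoxin, changed direction between the days, from -0.19 to 0.81 (DESeq2 adjusted p = 1.82e-04 and 2.96e-117; interaction 1.00, DESeq2 adjusted p = 1.62e-94). *Gclc*, the catalytic subunit for the first step of glutathione synthesis, rose by 0.35 and 0.24 (DESeq2 adjusted p = 5.31e-09 and 1.28e-05).

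*Txnrd1* is a target of NRF2, the transcription factor of the oxidative stress response, and a list of 14 other NRF2 targets, 5 of them also on the previous list, moved in both directions. Of 12 tested, 4 rose and 1 fell at Day 2 and 5 rose and 3 fell at Day 4 (medians 0.11 and -0.013), which is 5 and 8 of 12 called, beside 19.8% and 45.1% of all genes. The 4 that rose at Day 2 became 2 without EtOH replicate 2. *Srxn1*, given above, fell on both days and was the 1 gene called lower at Day 2. *Nqo1*, also on the list of PRDM10-bound genes, was tested and was thus not called lower at Day 2. The direction of *Nqo1* at Day 2 and its result at Day 4 are not given here. *Me1*, a source of NADPH, rose at Day 2 by 0.35 (DESeq2 adjusted p = 3.39e-04) and stood at -0.046 at Day 4 (DESeq2 adjusted p = 0.783). *Txn1*, the cytosolic thioredoxin that TXNRD1 reduces, rose by 0.13 and 0.38 (DESeq2 adjusted p = 0.0205 and 1.67e-24), and *Pgd*, of the pentose phosphate pathway, was at 0.10 on Day 2 and -0.35 on Day 4 (DESeq2 adjusted p = 0.183 and 8.12e-14).

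The genes whose pattern was most like that of *Selenow* over the 12 libraries, by Pearson's r of log2(normalized count + 1) among 11616 genes with a mean above 100, were *Nupr1*, *Sumo3*, *Psat1*, *Wasf1* and *Uchl1*. The libraries share treatment and day, and r is given as a description. *Nupr1*, a stress-responsive chromatin protein, had r = 0.992 and log2 fold changes of -0.36 at Day 2 and -2.24 at Day 4. *Sumo3*, a small ubiquitin-like modifier, had r = 0.989 with much smaller changes of -0.14 and -0.57. For *Psat1*, an enzyme of serine synthesis, r was 0.988 and the changes were -0.38 and -0.97. *Wasf1*, a regulator of actin, had r = 0.988 with -0.52 and -2.18, and *Uchl1*, a deubiquitinase, r = 0.987 with -1.36 and -3.21. All 5 had smaller log2 fold changes at Day 4 than *Selenow*.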

How the data were processed

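Total RNA was sequenced from 12 libraries, 3 for each label and day. Per the methods, the authors sequenced TruSeq Stranded Total RNA libraries as paired reads and aligned them with STAR to GRCm38.p6. Gene-level expected counts (estimated read numbers, not normalized) and TPM were deposited by the authors as made with RSEM on GENCODE vM18, and the strand setting of the counting is not given in the sources used here. RSEM's posterior SD of each count, deposited by the authors beside it, was used for shared reads only. Tables deposited by the authors also hold fold changes, p-values and mean counts of their own comparisons, and of these only the gene symbols were used. Tool versions in the submitters' processing notes were STAR 2.6.0c and DESeq2 1.22.2.

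Expected counts were rounded and tested with DESeq2 1.42.0 (R 4.3.3), a Wald test per comparison on its 6 libraries with median-of-ratios scaling, and on all 12 for the interaction. Benjamini-Hochberg adjustment ran over all genes, with calls at adjusted p below 0.05 and a mean normalized count above 100 (only genes above it count as tested). Normalized counts are scaled within the 6 libraries of a day, and levels between genes use TPM. The libraries of a group differed from each other by more than counting noise. Intervals are 95% Wald intervals. Alternatives were edgeR 4.0.16 (quasi-likelihood, TMM), TMM factors, total counts, effective lengths as offsets, removal of a loess trend on gene length, the replicate number as a block, all 12 libraries in 1 fit, no minimum mean and each library left out. The fits were tested on simulated data. The 10 genes and the other lists were chosen with earlier results of these data known. Named were all members and pseudogenes with their symbol, and the tested genes of both selenoprotein lists. Of each redox list, the 3 called genes with the lowest adjusted p on each day were named. Also named were *Prdm10*, *Nqo1* as a gene on the list of PRDM10-bound genes, and the 5 genes most correlated with *Selenow*. Pseudogenes of *Selenok* and *Selenot* held at most 16.0 expected counts in a library. The list of PRDM10-bound genes and the probe sequences came from the study's supplementary tables, and overlaps of genes from GENCODE vM21.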

Additional observations from a re-analysis of the deposited data

Results flagged for a closer look

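The following genes were singled out because the effect of the OHT label, on the log2 scale, differed between Day 4 and Day 2 in the test of that difference over all 12 libraries, which called 32.3% of all genes tested. Among the 10 selenoprotein genes described, the difference was -3.77 (DESeq2 adjusted p = 3.08e-63) for *Selenow*, 0.24 (DESeq2 adjusted p = 2.56e-04) for *Selenof*, 0.16 (DESeq2 adjusted p = 0.0254) for *Gpx1*, 0.37 (DESeq2 adjusted p = 4.12e-13) for *Gpx4* and -0.20 (DESeq2 adjusted p = 1.28e-06) for *Txnrd1*. Among the other selenoprotein genes it was -1.22 (DESeq2 adjusted p = 1.38e-09) for *Gpx2*, -0.81 (DESeq2 adjusted p = 1.84e-04) for *Selenop*, 0.45 (DESeq2 adjusted p = 6.51e-15) for *Sephs2* and 0.53 (DESeq2 adjusted p = 0.00274) for *Txnrd3*. In the selenocysteine machinery it was -0.18 (DESeq2 adjusted p = 9.18e-05) for *Sars*, -0.27 (DESeq2 adjusted p = 0.0133) for *Secisbp2l*, 0.27 (DESeq2 adjusted p = 1.90e-06) for *Rpl30* and 0.39 (DESeq2 adjusted p = 3.53e-05) for *Trit1*. A negative value means a lower OHT to EtOH ratio at Day 4 than at Day 2. These are 5 of 10 members, 4 of 10 tested other selenoprotein genes and 5 of 15 machinery genes, *Sephs2* being in both lists. The *Gpx1* call was lost under several alternatives (DESeq2 or edgeR adjusted p 0.00161 to 0.193 over all alternatives). Groups of 3 libraries were too small for a test of single outlying libraries.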

How the results depend on the processing

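*Selenow* kept its direction and its call under every alternative run, with log2 fold changes of -1.38 to -1.20 at Day 2, -5.15 to -4.99 at Day 4 and -3.86 to -3.68 for their difference. Of all values of single members under alternatives, 637 kept direction and side of the threshold, 30 lost a call, 9 gained one and 24 changed sign. Removing each library's trend on gene length left 1 member lower at Day 2 (*Selenow*) in place of 3. Leaving out single libraries gave 1 to 3 members lower at Day 4 and 1 to 2 lower between the days in EtOH. The cause of these changes was not tested.

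Among the alternatives run, changes of sign were found only for small values that were not called. With the length trend removed, *Gpx1* was at 0.035 and *Msrb1* at 0.069 at Day 2, *Selenok* at -0.0056 between the days in OHT, *Msrb1* at 0.0087 between the days in EtOH, and the interactions of *Selenoh* and *Selenok* at -0.0086 and -0.021. Day 2 *Msrb1* was at 0.0050 with edgeR, 0.0012 with TMM factors and 0.029 with total counts, which put *Msrb1* at 0.0078 between the days in EtOH. With effective lengths, *Selenok* was at -0.064 between the days in EtOH and -0.037 in OHT, and the interaction of *Txnrd2* at -0.048. Without single libraries, *Msrb1* ran from -0.051 to 0.013 at Day 2 and from -0.049 to 0.011 between the days in EtOH, where *Selenok* ran from -0.077 to 0.067 and *Selenot* from -0.063 to 0.13, and the interaction of *Selenok* ran from -0.017 to 0.13.

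Replicate numbers did not pair the libraries, with correlations of -0.231 to 0.121 between deviations of the same-numbered EtOH and OHT libraries of a day, and not every library correlated best with its own number. With the replicate number as a block, 1 member was lower at Day 4 and *Selenow* was at -1.28 and -5.06, while *Selenok* (adjusted p = 0.0696 and 0.0568) and Day 4 *Selenoh* (adjusted p = 0.0629) were not called. The block gave 658 genes higher and 659 lower at Day 2, in place of 1068 and 1238. Total counts gave 638 lower, and leaving out EtOH replicate 1 or 2 gave 615 or 697 higher and 586 or 710 lower. Among the other lists, the block left 1 other selenoprotein gene higher on each day, and 1 thioredoxin or glutathione gene and 2 NRF2 targets higher at Day 2. Effective lengths left 1 other selenoprotein gene higher at Day 2, and edgeR and the fit of all 12 libraries gave 2 lower at Day 4. In the selenocysteine machinery, total counts and the length trend gave 1 gene lower at Day 2, and at Day 4 edgeR gave 6 and total counts 4 lower. All genes called lower at Day 4 ran from 1868 to 3070 over all alternatives. With 0, 1 or 3 mismatches allowed in place of 2, the letters of the probe were found at 0, 0 and 8 members, the last beside 50.1% of all genes.

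Read depth limits the least covered genes. The SE of the log2 fold change was 0.18 and 0.17 for *Txnrd2* at Day 2 and Day 4, against 0.041 and 0.030 for *Gpx4*. An exact test of 3 against 3 libraries cannot give a p below 0.1.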
